A study of Mus musculus with 59 samples.

Results

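A set of 10 genes that silence chromatin and retrotransposons was followed in mouse embryonic stem cells (ESCs) after transcription had been stopped. The genes were chosen by name: the heterochromatin protein 1 (HP1) genes Cbx1, Cbx3 and Cbx5, the histone H3 lysine 9 (H3K9) methyltransferase genes Suv39h1, Suv39h2, Setdb1, Ehmt1 and Ehmt2, and the cofactor genes Trim28 and Dnmt3l. These are 10 of the 23974 genes of the table, and they are counted there as 27 annotated transcripts. The choice was made with the higher values of Cbx3 and Suv39h1 in knockout cells at 8 h already known, so the values at 8 h are described here without a test. Only 4 of the 10 genes, Cbx1, Cbx3, Suv39h1 and Trim28, reached the mean of 10 that was required for a test.

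The cells were ESCs derived from BDF1 mice, either knocked out for Zcchc8 (KO) or wild type (control). Both genotypes were grown in serum medium with LIF, CHIR99021 and PD0325901, and RNA was taken 0, 4 and 8 h after addition of Actinomycin D (5 µg/ml), which blocks transcription. The 6 groups were KO at 0, 4 and 8 h and control at 0, 4 and 8 h, with 2 libraries each, in all 12 of the 59 samples in the series. Total RNA was depleted of ribosomal RNA with the KAPA RiboErase kit after ERCC spike-in RNA had been added. The labels give neither the part of Zcchc8 that was deleted, nor the number of clones, nor whether replicates were separate cultures, and p-values here reflect only how far the libraries of a group lie apart, which can be technical.

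ZCCHC8 is the scaffold of the nuclear exosome targeting complex, an adaptor that delivers unstable nuclear transcripts to the RNA exosome. HP1 proteins bind methylated H3K9 and are a core component of heterochromatin. SUV39H1 and SUV39H2 place the trimethyl mark at pericentromeric repeats, whereas SETDB1 places it at endogenous retroviruses, where TRIM28 is brought by KRAB zinc finger proteins. EHMT1 (GLP) and EHMT2 (G9a) form the enzyme of H3K9 dimethylation, and DNMT3L is a cofactor of de novo DNA methylation that has no methyltransferase activity of its own.

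The values are normalised read counts, that is, reads per transcript after division by a library factor set by the authors, summed here by gene. Whole reads could be recovered from them, and the libraries held 465324 to 1364523 reads, with 1 read worth 0.452 to 3.23 normalised counts. The Pearson correlation of replicates across the 6952 tested genes, which are not independent, was 0.867 to 0.938 in KO groups and 0.846 to 0.930 in control groups. The median gene stood higher in KO by 0.44 at 0 h, 0.29 at 4 h and 0.63 at 8 h on the log2 scale. At 0 h this offset rests on single control libraries, being 0.017 without control replicate 1 and 0.81 without control replicate 2, and at 4 h it was 0.093 without control replicate 1. The offset was removed when libraries were rescaled by trimmed mean of M values (TMM), and results that turn on it are given on both scales. Zcchc8 itself had 25.3 and 5.29 normalised counts in KO and 59.3 and 77.5 in control at 0 h (log2 change -2.42, SE 0.681, adjusted p = 0.0332, limma). At 4 h it had 21.3 and 13.6 in KO and 32.7 and 24.7 in control (log2 change -0.71, adjusted p = 0.845, limma), and at 8 h the groups overlapped, at 9.56 and 3.78 in KO and 7.57 and 11.3 in control, so the targeted gene does not separate the genotypes at the time that chose the genes.

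Of 16 pluripotency markers 12 had reads in every library and Esrrb was at 0. Their summed level was 4373 to 4953 in KO and 3223 to 5572 in control at 0 h, 1844 to 1952 in KO and 1583 to 2212 in control at 4 h, and 1146 to 1413 in KO and 888 to 1161 in control at 8 h. After TMM scaling it was lower in KO without overlap at each time, at 2692 to 2922 in KO and 3392 to 3504 in control at 0 h, 1785 to 1950 in KO and 2191 to 2345 in control at 4 h, and 1495 to 2008 in KO and 2156 to 2234 in control at 8 h. The summed level of 20 fibroblast markers, of which Sparc, Postn and Pdgfrb were at 0, was 14083 to 18287 in KO and 5884 to 9409 in control at 0 h, 17316 to 18872 in KO and 8393 to 10256 in control at 4 h, and 10845 to 13671 in KO and 7592 to 9357 in control at 8 h. The summed fibroblast markers were higher in KO without overlap at each time on the deposited scale. Of single tested genes 37.3%, 37.0% and 55.3% were so at 0, 4 and 8 h. After TMM scaling the sum was still higher at 0 h (8668 to 10787 in KO and 5727 to 6397 in control) and at 4 h (17262 to 18312 in KO and 10872 to 11616 in control). The 8 h ranges overlapped, at 14142 to 19424 in KO and 18004 to 18435 in control. On that scale 4 of 13 tested fibroblast markers were called higher at 0 h and 2 of 13 at 4 h with limma. Of all tested genes 1.68% and 0.906% were called there. On the deposited scale 6 of the 13 were called higher at 0 h and 0 at 4 h, against 4.3% and 0.748% of all tested genes. Of the 12 tested pluripotency markers 0 were called at 0 h or 4 h on either scale. After TMM scaling 24.7% of tested genes at 4 h and 19.8% at 8 h had both KO libraries below both control libraries. The part of both marker sets in the differences below was not tested, and in bulk RNA fewer cells of a type and less RNA per cell cannot be told apart. Primitive endoderm and trophoblast markers summed to at most 58.9 and 171 in any library.

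The silencing genes that reached the mean of 10 were those with 1 annotated transcript, and Suv39h1. Whether the number of transcripts sets which genes are measured was not tested. Cbx1, Cbx3 and Trim28 have 1 transcript each in the table, and all 3 were tested. Of the other 7 genes, with 2 to 6 transcripts each, only Suv39h1 was. Over all genes 34.3% of genes with 1 transcript and 8.47% of those with several transcripts reached the mean of 10. To show what separates the transcripts of 1 gene, every 50-base stretch of each transcript was looked up in the other counted transcripts of that gene. In Cbx1, Cbx3 and Trim28 all stretches were the transcript's own, 1202, 1840 and 3196 of them. In Ehmt2 the 4 transcripts had 30, 17, 0 and 0 stretches of their own and no read was counted in any of the 12 libraries.

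The genes with low values differed in this measure. Setdb1, with 85, 49 and 2 own stretches in its 3 transcripts, had 1 read over all libraries. Dnmt3l had 8 reads in 4 libraries over 6 transcripts. Suv39h2 had 7 reads in 2 libraries, although 1 of its 2 transcripts had 2044 own stretches. Ehmt1 had no read, although 1 of its 4 transcripts had 1238. Cbx5, which codes for HP1 alpha, had 45 reads in 10 libraries, of which 42 fell on the transcript with 5226 own stretches, and its mean over the 12 libraries was 4.55. For these 6 genes a low value is not taken as a measure of the RNA in the cells, and no comparison of genotypes or times is given.

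**Figure D1:**
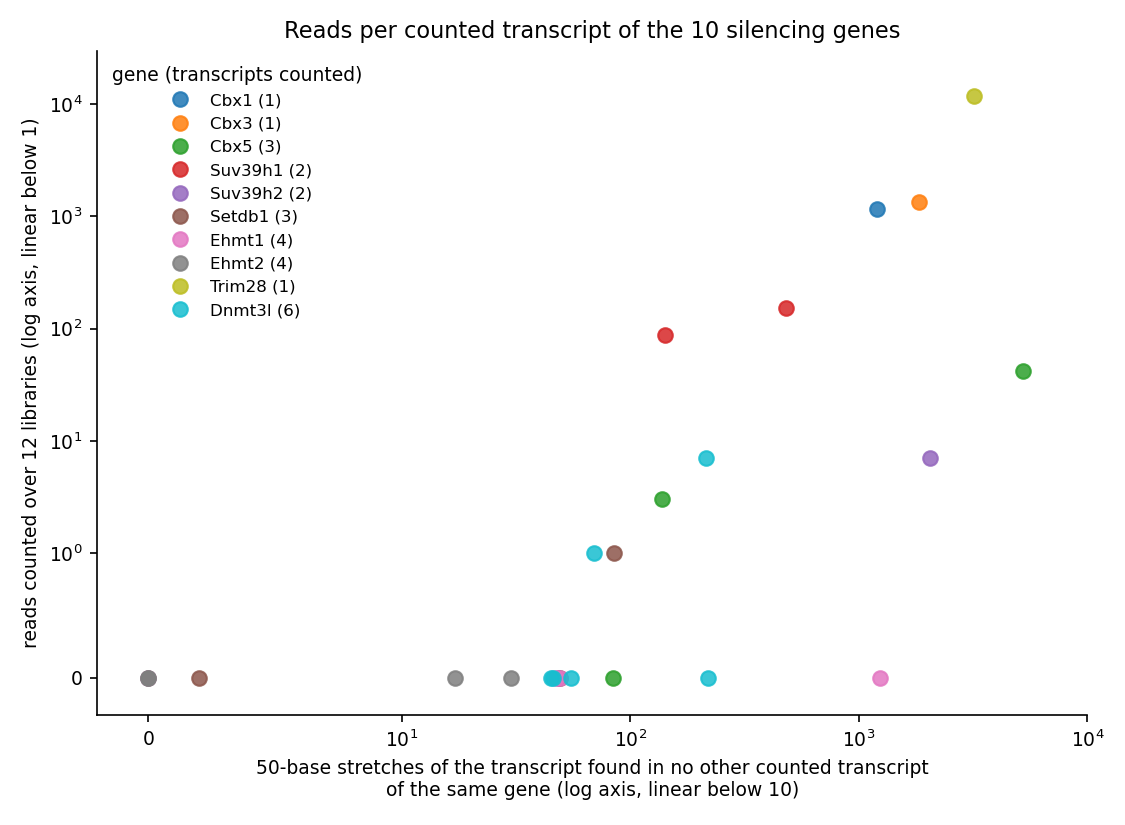
Reads counted over the 12 libraries (vertical axis, logarithmic above 1) against the number of 50-base stretches found in no other counted transcript of the same gene (horizontal axis, logarithmic above 10), 1 point per annotated transcript. Trim28, Cbx3 and Cbx1 lie at the top, the 2 Suv39h1 transcripts follow with 152 and 87 reads, and an Ehmt1 transcript with 1238 own stretches lies at 0 reads.

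Suv39h1 is the one gene with several transcripts that was measured, and its transcripts begin at different start sites. The promoter windows are shown because the counted transcripts of the gene differ in annotated start. Use of the starts was not measured. Those of Cbx3 and Cbx1 are shown because the pair of HP1 genes differed at 8 h. Windows run from 250 bases before to 50 bases after a RefSeq start site, 5' to 3' on the strand of the gene, from RefSeq on GRCm38.p6. That build is not the mm9 build of the authors, so positions do not carry over to their files. The upstream Suv39h1 window is chrX:8074711-8075010 on the minus strand and belongs to NM_011514. The downstream one is chrX:8074312-8074611 on the minus strand. The annotated start of NM_001290716, at 8074258, lies near this window but outside it. RefSeq lists more than 1 Cbx3 start, and the window shown, nearest the start of its counted transcript NM_007624, is chr6:51470366-51470665 and the Cbx1 window chr11:96788885-96789184, both on the plus strand. Capitals mark a GC box, a CCAAT box or an E2F motif on either strand. The GC box was searched as GGGCGG, the CCAAT box by the letters of its name and the E2F motif as TTTGGCGC or TTTCGCGC.
Suv39h1 upstream: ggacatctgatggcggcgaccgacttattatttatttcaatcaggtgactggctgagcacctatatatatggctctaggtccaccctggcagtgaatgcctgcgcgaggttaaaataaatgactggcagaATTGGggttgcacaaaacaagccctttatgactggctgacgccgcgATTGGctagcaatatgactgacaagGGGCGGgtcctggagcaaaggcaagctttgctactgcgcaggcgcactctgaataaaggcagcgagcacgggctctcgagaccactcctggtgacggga
Suv39h1 downstream: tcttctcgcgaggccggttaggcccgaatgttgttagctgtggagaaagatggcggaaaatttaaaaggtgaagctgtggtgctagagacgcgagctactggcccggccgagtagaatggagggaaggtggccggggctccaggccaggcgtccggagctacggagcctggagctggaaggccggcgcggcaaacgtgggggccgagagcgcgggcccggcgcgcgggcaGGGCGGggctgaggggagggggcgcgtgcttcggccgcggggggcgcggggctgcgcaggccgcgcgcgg
Cbx3: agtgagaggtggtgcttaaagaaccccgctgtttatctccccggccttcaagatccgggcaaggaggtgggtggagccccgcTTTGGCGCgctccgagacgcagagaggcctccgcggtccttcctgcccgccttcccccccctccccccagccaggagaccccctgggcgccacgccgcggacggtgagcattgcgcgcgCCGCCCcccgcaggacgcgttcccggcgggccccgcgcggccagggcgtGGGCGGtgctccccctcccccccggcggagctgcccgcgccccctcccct
Cbx1: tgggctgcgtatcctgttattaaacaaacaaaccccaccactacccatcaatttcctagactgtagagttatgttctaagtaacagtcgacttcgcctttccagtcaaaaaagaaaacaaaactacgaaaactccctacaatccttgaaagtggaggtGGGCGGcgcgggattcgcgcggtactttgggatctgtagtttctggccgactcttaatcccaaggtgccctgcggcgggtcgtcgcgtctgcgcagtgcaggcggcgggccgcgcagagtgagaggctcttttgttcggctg

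The start windows of Suv39h1 were unlike each other. The upstream window had 53.0% G and C, 15 CpG, 2 CCAAT boxes and 1 GC box, and the downstream window had 71.0% G and C, 37 CpG and 1 GC box. The Cbx3 window had 75.3% G and C, 34 CpG, 2 GC boxes and 1 E2F motif. The Cbx1 window had 52.7% G and C, 22 CpG and 1 GC box, and that of Trim28, chr7:13023902-13024201 on the plus strand, had 64.0% G and C, 23 CpG and 2 GC boxes. Over 32817 mouse windows of the same length the median was 52.7% G and C and 7 CpG. The GC box was found in 35.6% of them, the CCAAT box in 37.4% and the E2F motif in 0.814%. No TATA box (TATAAA) was found in the 5 windows, and 13.6% of all windows hold one. No E-box (CACGTG, held by 7.15%) was found in them. No ETS motif (CGGAAG, held by 16.9%) was found either. A match to these letters is a description of the sequence and not a binding site.

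The 2 measured HP1 genes had similar differences between genotypes before the block and unlike ones at its end. Cbx1 codes for HP1 beta. At 0 h it had 170 and 138 normalised counts in KO libraries and 79.0 and 129 in control libraries, at 4 h 84.1 and 139 in KO and 87.3 and 77.2 in control, and at 8 h 79.7 and 57.9 in KO and 49.7 and 52.4 in control. The KO libraries stood above the control libraries without overlap at 0 h and at 8 h, as did 37.3% and 55.3% of tested genes. The groups overlapped at 4 h. After TMM scaling the groups overlapped at all 3 times.

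Cbx3 codes for HP1 gamma, the HP1 protein that is also found along transcribed genes. At 0 h it had 212 and 187 normalised counts in KO and 100.1 and 171 in control, at 4 h 139 and 110 in KO and 90.2 and 110 in control, and at 8 h 91.8 and 112 in KO and 28.1 and 27.6 in control. The KO libraries were the higher ones at every time, barely at 4 h and widely at 8 h. Taken time by time, KO libraries were the higher ones in 37.3%, 37.0% and 55.3% of tested genes at 0, 4 and 8 h. After TMM scaling the groups overlapped at 4 h. At 8 h the values rest on 144 and 89 reads in KO and 52 and 61 reads in control. Of the 1840 stretches of 50 bases in the Cbx3 transcript, 532 (28.9%) are also found in 16 other annotated genes, 13 of them pseudogenes such as Cbx3-ps6 and Cbx3-ps7, so reads of these copies cannot be told apart from reads of Cbx3 in that stretch. Cbx1 and Trim28 share none.

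Suv39h1 had the lowest counts of the 4 measured genes, with a mean of 24.2 over the 12 libraries. Only 15.6% and 5.17% of the stretches of its transcripts are their own, against 100% in Cbx1, Cbx3 and Trim28. The rank is therefore one of counts and is not taken as a rank of RNA in the cells. It had 42.1 and 65.2 normalised counts in KO and 13.2 and 35.5 in control at 0 h, 17.4 and 17.4 in KO and 5.09 and 6.95 in control at 4 h, and 14.0 and 65.5 in KO and 3.24 and 4.97 in control at 8 h. Every KO library was above both control libraries of its time, on both scales. Taken time by time this held for 37.3%, 37.0% and 55.3% of tested genes at 0, 4 and 8 h on the deposited scale. After TMM scaling it held for 23.0%, 24.5% and 20.8%. The KO libraries at 8 h lay far apart, at 22 and 52 reads, and the control libraries held 6 and 11 reads.

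Trim28, which codes for the corepressor KAP1 that brings SETDB1 and HP1 to retroviral sequences, was the highest. It had 1241 and 1287 normalised counts in KO and 753 and 1131 in control at 0 h, 999 and 1062 in KO and 800 and 1137 in control at 4 h, and 799 and 587 in KO and 494 and 608 in control at 8 h. The groups overlapped at 4 h and at 8 h on this scale. After TMM scaling they overlapped at 0 h, and both KO libraries lay below both control libraries at 4 h and 8 h, as did 24.7% and 19.8% of tested genes. Per kilobase of transcript, Trim28 averaged 280 ± 83.2 normalised counts, Cbx1 76.2 ± 31.3 and Cbx3 60.8 ± 29.9 (SD over all 12 libraries, KO and control at 3 times). Trim28 lay above both HP1 genes by more than this spread, and the HP1 genes differed from each other by less than it.

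**Figure D2:**
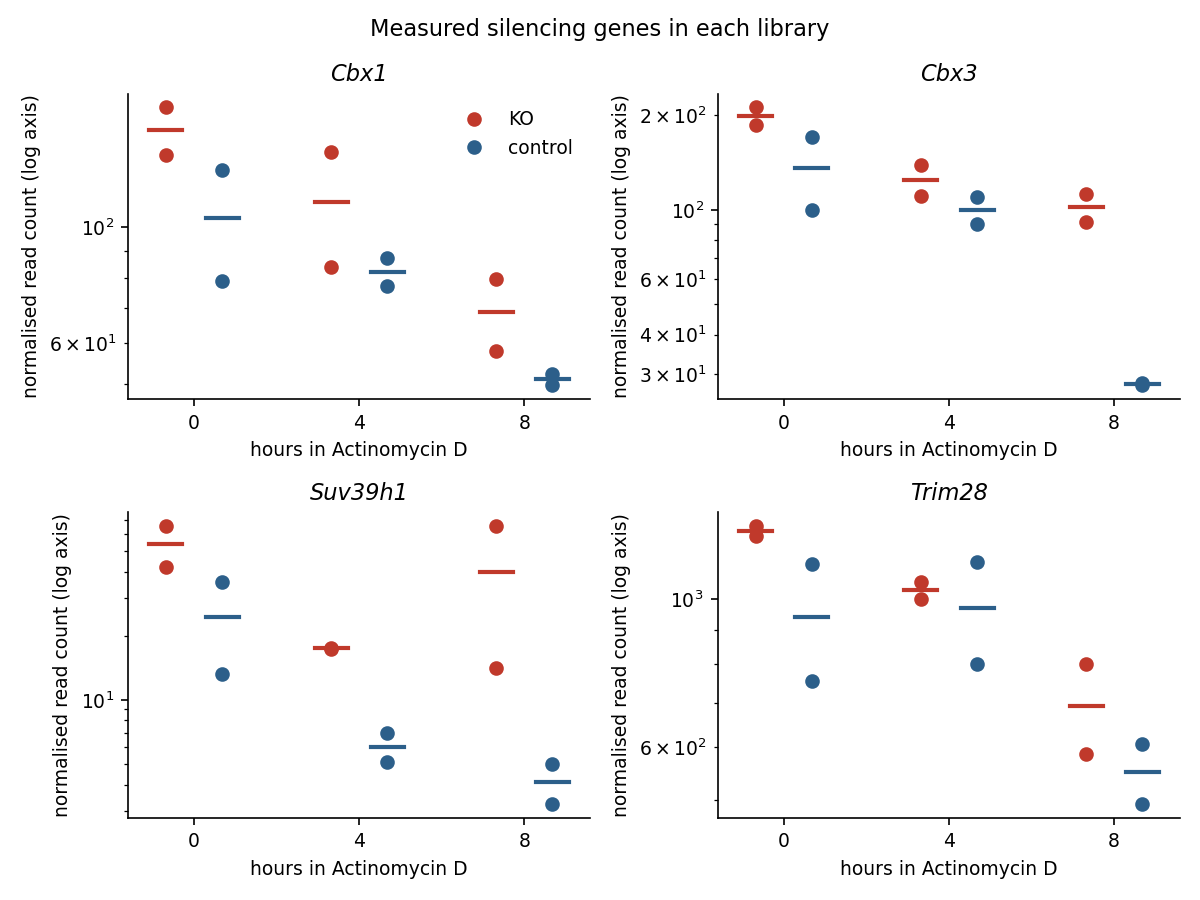
Normalised read count (logarithmic axes, a different range in each panel) of Cbx1, Cbx3, Suv39h1 and Trim28 at 0, 4 and 8 h in Actinomycin D. Points are libraries and bars the means of 2 libraries, with KO left of control. The control libraries of Cbx3 at 8 h lie at 28.1 and 27.6, below the KO libraries at 91.8 and 112.

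Before transcription was stopped, none of the 4 measured silencing genes passed the test between KO and control. Cbx1 averaged 154 ± 23.0 in KO and 104 ± 35.5 in control (SD, n = 2 each), a log2 change of 0.59 (SE 0.416, adjusted p = 0.507, limma). Cbx3 averaged 199.6 ± 17.9 in KO and 136 ± 50.3 in control, a log2 change of 0.60 (SE 0.404, adjusted p = 0.483, limma), and Trim28 1264 ± 32.4 in KO and 942 ± 267 in control, a log2 change of 0.45 (SE 0.363, adjusted p = 0.574, limma). These 3 values lay near the median gene, which stood at 0.44. Suv39h1 averaged 53.7 ± 16.4 in KO and 24.4 ± 15.8 in control, a log2 change of 1.23 with a 95% interval of -0.18 to 2.64 (adjusted p = 0.372, limma), so that a difference of the size of the median gene and one several times larger both lie inside it. Without control replicate 1 the change of Suv39h1 was 0.55 and without control replicate 2 it was 1.91, neither past the test (adjusted p = 0.815 and 0.0818, limma). Among all 6952 tested genes 4.3% were called, 4.23% higher and 0.0719% lower in KO. All 4 genes had both KO libraries above both control libraries, which held for 37.3% of tested genes. On the TMM scale this held for Cbx3 and Suv39h1 and for 23.0% of tested genes. After TMM scaling the log2 changes were 0.16 for Cbx1, 0.17 for Cbx3, 0.81 for Suv39h1 and 0.02 for Trim28, with 1.68% of all genes called. With limma on all 12 libraries no member had an unadjusted p under 0.05, as 17.6% of tested genes had, and edgeR and DESeq2 also called 0 of the 4.

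After 4 h none passed the test either, and Suv39h1 had the largest difference of the 4. It averaged 17.4 ± 0.0422 in KO and 6.02 ± 1.31 in control (SD, n = 2 each), a log2 change of 1.40 with a 95% interval of -0.01 to 2.81 (unadjusted p = 0.0512, adjusted p = 0.516, limma). It was higher in both KO libraries than in both control libraries, as 37.0% of tested genes were, and after TMM scaling 24.5%. Cbx1 differed by 0.40 (SE 0.416, adjusted p = 0.868, limma), Cbx3 by 0.31 (SE 0.404, adjusted p = 0.898, limma) and Trim28 by 0.11 (SE 0.363, adjusted p = 0.972, limma), next to 0.29 for the median gene. Of all tested genes 0.748% were called. After TMM scaling the changes were 1.14 for Suv39h1, 0.10 for Cbx1, 0.02 for Cbx3 and -0.19 for Trim28, so the direction of Trim28 depends on the scale, on which 0.906% of genes were called. No member had an unadjusted p under 0.05 with limma, against 9.74% of tested genes, and edgeR and DESeq2 called 0 of the 4.

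At 8 h Cbx3 and Suv39h1 stood apart from the other measured members. These values chose the genes and carry no test. Cbx3 averaged 102 ± 14.3 in KO and 27.8 ± 0.387 in control, 3.66 times as high, and Suv39h1 39.8 ± 36.4 in KO and 4.11 ± 1.22 in control, 9.68 times as high (SD, n = 2 each). On the log2 scale the differences were 1.83 and 2.65, against 0.63 for the median gene, and lay above those of 93.9% and 98.4% of tested genes. Cbx1 averaged 68.8 ± 15.4 in KO and 51.1 ± 1.90 in control, a log2 difference of 0.41, and Trim28 693 ± 150 in KO and 551 ± 80.3 in control, a log2 difference of 0.32, both below the median gene. All measured members but Trim28 (3 of 4) had both KO libraries above both control libraries, as had 55.3% of tested genes. After TMM scaling it held for Cbx3 and Suv39h1 and for 20.8% of tested genes.

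The difference of Cbx3 at 8 h stayed above that of the median gene when the libraries were rescaled. After TMM scaling it averaged 138 ± 11.1 in KO and 60.6 ± 10.8 in control, a log2 difference of 1.19, and Suv39h1 52.7 ± 46.3 in KO and 8.72 ± 1.19 in control, a log2 difference of 2.13. On that scale Cbx1 lay at -0.25 and Trim28 at -0.35, so the direction of both turned. The size for Suv39h1 depended on single libraries: on the deposited scale the log2 difference was 1.58 without KO replicate 2 and 3.72 without KO replicate 1. For Cbx3 leaving out any 1 of the 4 libraries gave 1.69 to 1.97 on the deposited scale. The 8 h values chose both genes, so these ranges describe the values and are not a test of the differences.

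**Figure D3:**
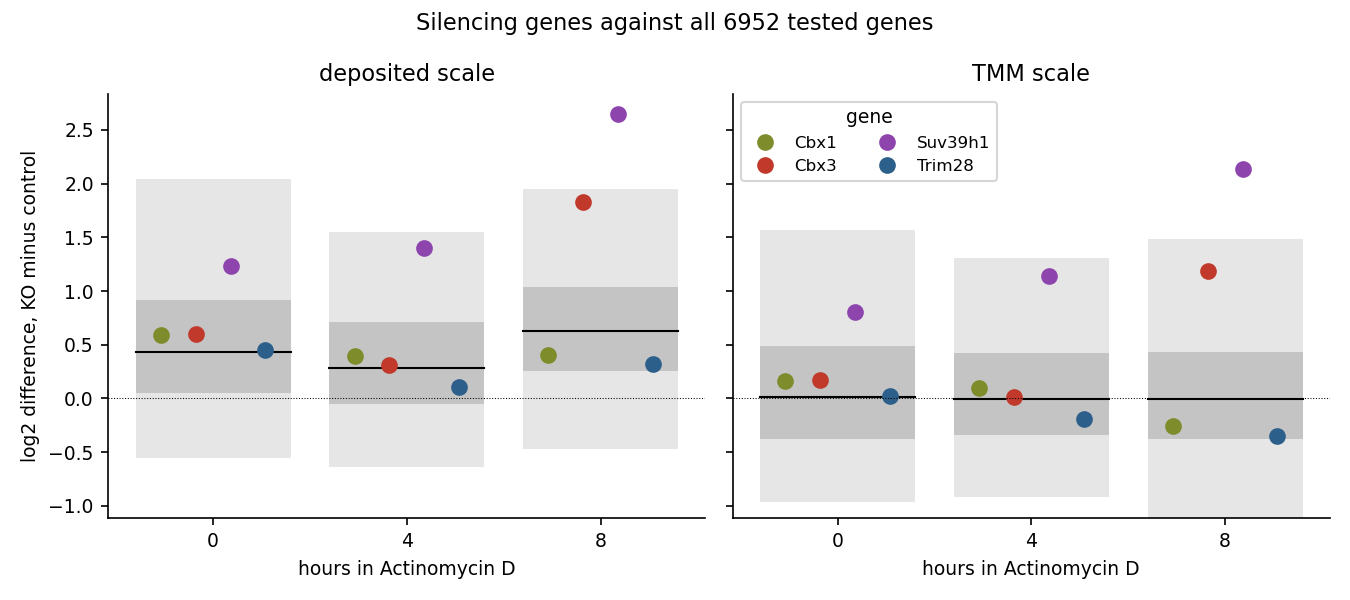
Log2 difference of KO minus control at 0, 4 and 8 h on the deposited scale (left) and after TMM scaling (right). Points are the 4 measured silencing genes, dark grey spans the middle 50% and light grey the middle 90% of 6952 tested genes, and the black line is the median gene. At 8 h Cbx3 lies at 1.83 on the deposited scale and at 1.19 after TMM scaling, above the dark band on both.

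The transcripts of Suv39h1 were counted separately, and both had reads. NM_011514, which begins at the upstream window, had 152 reads over the 12 libraries, and NM_001290716 had 87. At 8 h NM_011514 had 11.5 and 40.3 normalised counts in KO (18 and 32 reads) and 0 and 3.61 in control (0 and 8 reads). NM_001290716 had 2.55 and 25.2 in KO (4 and 20 reads) and 3.24 and 1.36 in control (6 and 3 reads). The genotypes did not overlap for the upstream transcript and overlapped for the downstream transcript. That overlap rests on 4 reads in 1 KO library and 6 reads in 1 control library. On the deposited scale 55.3% of tested genes had all KO libraries above all control libraries at 8 h. The 8 h values of Suv39h1 chose the gene, and the difference between its transcripts was not tested. No values after TMM scaling are given for single transcripts. At 0 h NM_011514 had 21.9 and 52.9 in KO and 5.27 and 22.6 in control, with an overlap. At 4 h NM_011514 had 10.1 and 14.5 in KO and 3.64 and 1.54 in control, without overlap, as had 37.0% of tested genes. NM_001290716 had 7.29 and 2.91 in KO and 1.46 and 5.41 in control at 4 h, with an overlap.

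Only a short part of each Suv39h1 transcript separates it from the other. NM_011514 has 479 own stretches of 50 bases (15.6%) and NM_001290716 has 141 (5.17%). The gene also overlaps Gm14820, an antisense gene on the opposite strand, which shares 20.5% of the stretches of NM_011514 and 23.2% of those of NM_001290716. Of the own stretches Gm14820 shares 0 of 479 and 3 of 141. Whether counting used strand is not known here. In the shared stretches reads of the antisense gene cannot be told apart from reads of Suv39h1.

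**Figure D4:**
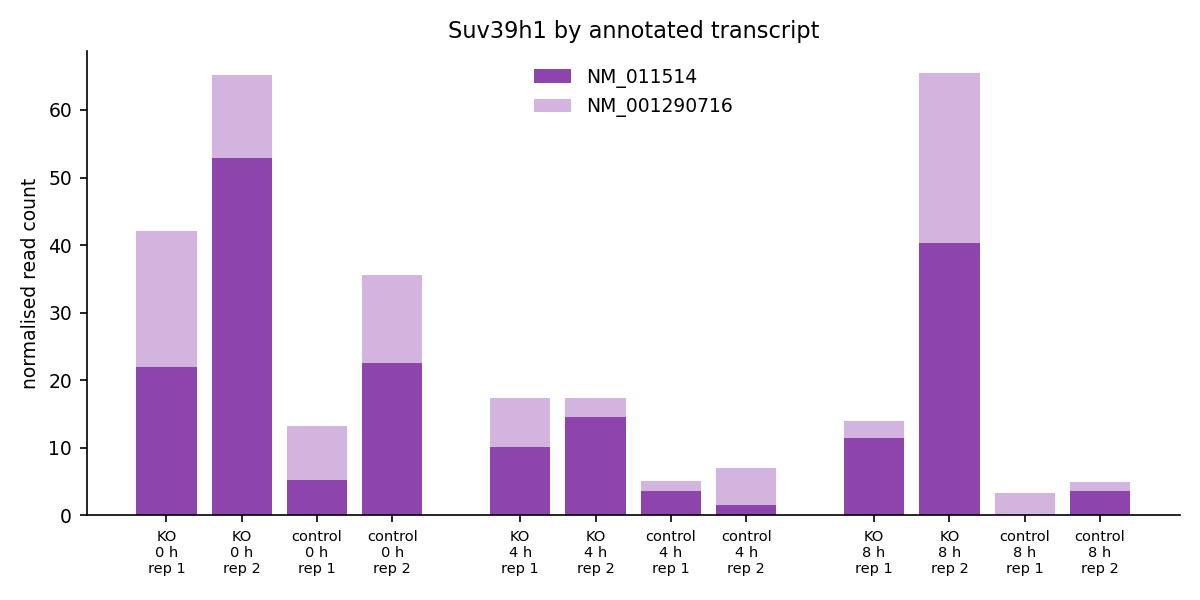
Normalised read count of the 2 annotated Suv39h1 transcripts in each library, stacked so that the full bar is the value of the gene. KO libraries stand left of control libraries at 0, 4 and 8 h, and the tallest bars are KO replicate 2 at 8 h (65.5) and KO replicate 2 at 0 h (65.2).

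The second question of the design is how fast each RNA declined once transcription was stopped. From 0 to 4 h Suv39h1 had the steepest change of the measured members in both genotypes, without passing the test. Its log2 change was -1.54 in KO (SE 0.700, unadjusted p = 0.0334, adjusted p = 0.134, limma) and -1.71 in control (SE 0.700, unadjusted p = 0.0187, adjusted p = 0.103, limma). In KO 32.4% of its 0 h level was left at 4 h and in control 24.7%. After TMM scaling the change was -0.85 in KO (unadjusted p = 0.200, limma) and -1.18 in control (unadjusted p = 0.0798, limma), with 52.8% left in KO and 40.1% in control, so neither reached an unadjusted p under 0.05 on that scale. The median gene changed by -0.68 in KO and by -0.49 in control, and 14.4% of tested genes were called in KO and 12.2% in control. Without control replicate 1 at 0 h the change of Suv39h1 in control was -2.39, next to -0.95 for the median gene. Without control replicate 2 at 0 h it was -1.03, next to -0.14. In a fit of the 4 KO libraries alone Suv39h1 and Cbx3 passed the test in KO (adjusted p = 0.00734 and 0.0373, limma). The count of all genes called lower in KO also moved in that fit, and ranged from 279 to 2521 over the alternatives. The share of all genes called in that fit is not given here, so these calls are not read as a trait of the members.

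The HP1 genes and Trim28 had smaller changes than Suv39h1 over these 4 h, and the differences between genes were not tested. In KO the log2 changes were -0.49 for Cbx1 (SE 0.416, adjusted p = 0.456, limma), -0.68 for Cbx3 (SE 0.404, adjusted p = 0.267, limma) and -0.29 for Trim28 (SE 0.363, adjusted p = 0.637, limma). In control they were -0.30, -0.39 and 0.05, with adjusted p-values of 0.719, 0.605 and 0.958 from limma. In all, 0 of 4 were called in either genotype with limma, edgeR or DESeq2, and Suv39h1 was the one with an unadjusted p under 0.05 in limma, as were 28.8% of tested genes in KO and 25.7% in control. The sign of these changes depends on the scale. After TMM scaling, which sets the median gene near 0, they were 0.21, 0.02 and 0.41 in KO and 0.27, 0.18 and 0.62 in control. On that scale Trim28 was called higher at 4 h in control (SE 0.195, adjusted p = 0.0458, limma), where 11.9% of all genes were called and 5.19% were called higher. This value is relative to the median gene and does not show that the RNA rose, as the change was 0.05 on the deposited scale. In KO Trim28 had an unadjusted p of 0.0494 and an adjusted p of 0.214 (limma), where 8.07% of all genes were called.

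No difference between the genotypes in the change from 0 to 4 h was detected. The change in KO minus the change in control was -0.20 for Cbx1 (SE 0.588), -0.29 for Cbx3 (SE 0.572), 0.17 for Suv39h1 (SE 0.990) and -0.34 for Trim28 (SE 0.513), with unadjusted p-values of 0.508 to 0.864 in limma (3.18% of tested genes were under 0.05). The 95% interval was -1.44 to 0.87 for Cbx3 and -1.82 to 2.17 for Suv39h1, so differences of 1 on the log2 scale in some direction are inside both. Of all tested genes 0.0144% were called, and edgeR and DESeq2 called 0 of the 4.

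From 4 to 8 h the courses of Cbx3 parted, which is the same 8 h difference seen along time and carries no test. Its log2 change over these hours was -0.29 in KO and -1.80 in control, next to -0.45 in KO and -0.79 in control for the median gene. Suv39h1 changed by 0.78 in KO and by -0.47 in control, where the KO value rests on libraries of 14.0 and 65.5. Cbx1 changed by -0.66 in KO and -0.68 in control, and Trim28 by -0.59 in KO and -0.80 in control. After TMM scaling Cbx3 changed by 0.18 in KO and -0.99 in control, and Suv39h1 by 1.23 in KO and 0.24 in control. Cbx1 then changed by -0.20 in KO and 0.15 in control, and Trim28 by -0.12 and 0.04, with the median gene near 0. The sign of several of these changes thus depends on the scale. At 8 h 51.1% of the 0 h level of Cbx3 was left in KO and 20.5% in control. For Cbx1 44.7% was left in KO and 49.0% in control, for Suv39h1 74.1% in KO and 16.9% in control, and for Trim28 54.8% in KO and 58.5% in control. The median gene kept 45.1% in KO and 36.3% in control. After TMM scaling the shares left at 8 h in KO were 115% for Cbx3, 102% for Cbx1, 162% for Suv39h1 and 125% for Trim28. In control they were 56.9%, 135%, 48.5% and 157% in the same order. The median gene then kept 102% in KO and 100.0% in control. On that scale only Cbx3 and Suv39h1 in control lay below their 0 h level. The deposited table held 0 spike-in rows, so these shares depend on the scale and are no half-lives.

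**Figure D5:**
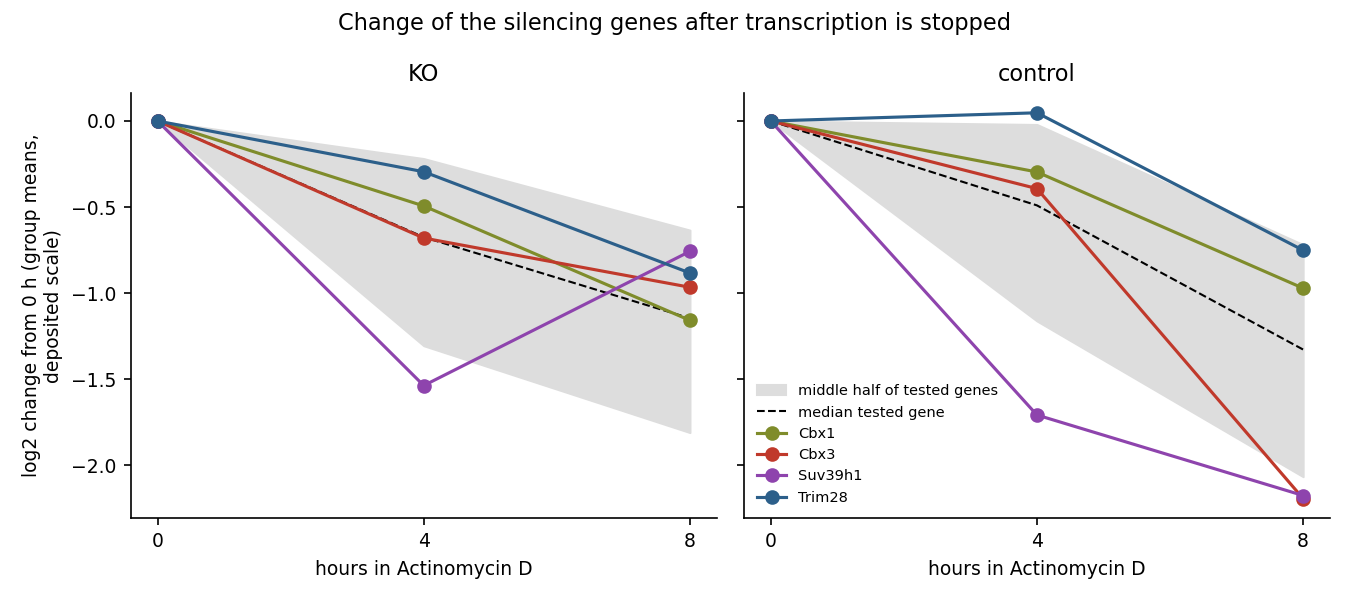
Log2 change of the group mean from 0 h at 4 and 8 h in Actinomycin D on the deposited scale, in KO (left) and control (right). Lines are the 4 measured silencing genes, the grey band spans the middle 50% of tested genes and the dashed line is the median gene. Cbx3 falls below the band in control, with 20.5% of its 0 h level left at 8 h, and stays within it in KO, with 51.1% left.

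The order of the 3 higher members over the groups was compared by the 6 group means after TMM scaling, over the 2809 genes that averaged 50 or more. The points share the scaling and the libraries, and the correlations are descriptions. The 8 h means that chose the genes are among the 6, so the course of Cbx3 is not independent of that choice. Cbx1 and Trim28 had r = 0.85 with each other, and Cbx3 had r = -0.47 with Cbx1 and r = -0.42 with Trim28. The genes with the most similar course were Sik3 (r = 0.99), Cmtm4 (r = 0.98) and Fam129a (r = 0.98) for Cbx1, D2Wsu81e (r = 0.98), Lrrc47 (r = 0.97) and Gm10658 (r = 0.96) for Cbx3, and Arpc1a, Slc25a39 and Rpl15 (r = 0.99 or more) for Trim28. Cbx1 ranged over only 0.42 on the log2 scale and Cbx3 over 1.19. For Cbx3 this range is its difference between KO and control at 8 h.

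The partners of the silencing genes were compared in the same way. Of 36 partners in H3K9 and retroviral silencing 22 were tested, and 0 were called between KO and control at 0 h or 4 h with limma (2 and 0 had an unadjusted p under 0.05), where 4.3% and 0.748% of all tested genes were called. So few calls over all genes leave little to read from 0 among 22. Their median log2 changes were 0.20 at 0 h and 0.17 at 4 h, next to 0.44 and 0.29 for all genes. After TMM scaling the medians turned to -0.23 and -0.12, next to 0.01 and -0.004 for all genes. On that scale 0 partners were called, and 2 and 4 had an unadjusted p under 0.05 with limma. From 0 to 4 h 2 of the 22 fell in KO and 3 fell in control, and none rose on the deposited scale, shares near the 14.4% in KO and 12.2% in control of all tested genes. After TMM scaling 1 was called lower and 1 higher (Chd4) in KO, and 2 were called lower in control. In the genotype difference of that change 0 were called on either scale, with 0 at an unadjusted p under 0.05 on the deposited scale and 1 after TMM scaling.

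The partners called lower after transcription was stopped are named as single genes, not as a trait of the list. They include a histone chaperone and a SETDB1 cofactor. Chaf1a, the large subunit of the CAF-1 chaperone, had 386 and 252 at 0 h and 55.5 and 48.4 at 4 h in KO, and 137 and 200.3 at 0 h and 51.7 and 74.9 at 4 h in control. Its log2 change was -2.57 in KO (SE 0.445, adjusted p = 6.41e-05, limma) and -1.40 in control (SE 0.445, adjusted p = 0.0308, limma; 0.127 after TMM scaling). Atf7ip, which stabilises SETDB1, was called in control, with a log2 change of -2.11 (SE 0.477, adjusted p = 0.00229, limma). In KO it was also lower, at 125 and 155 at 0 h and 41.5 and 70.7 at 4 h, and was not called. Morc3, an ATPase of silenced chromatin, changed by -1.73 in KO (SE 0.519, adjusted p = 0.0205, limma; 0.131 after TMM scaling) and by -2.10 in control (SE 0.519, adjusted p = 0.00491, limma).

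Few genes of the related chromatin lists were tested, so their calls are given gene by gene, against 14.4% of all tested genes called from 0 to 4 h in KO and 12.2% in control. Of 9 DNA methylation genes 3 were tested, and Tet2, which oxidises 5-methylcytosine, fell in KO (log2 change -1.94, adjusted p = 0.00105, limma) and in control (log2 change -1.38, adjusted p = 0.0213, limma; 0.0932 after TMM scaling). Of 8 H3K9 demethylase genes 3 were tested, and Kdm4b was called lower in control (log2 change -1.69, adjusted p = 0.0161, limma). None was called in KO, where Kdm4b was also lower, at 82.5 and 67.0 at 0 h and 27.5 and 34.9 at 4 h. Of 20 Polycomb genes 9 were tested. Rybp fell in KO (log2 change -1.54, adjusted p = 0.00871, limma), and Eed, Cbx2 and Rybp fell in control (log2 changes of -1.17, -2.04 and -1.20, adjusted p = 0.0422, 0.0438 and 0.0445, limma), none of which passed after TMM scaling. In KO Eed had 318 and 298 at 0 h and 135 and 189 at 4 h. Cbx2 had 43.8 and 72.3 at 0 h and 19.1 and 23.2 at 4 h in KO, so both were lower there without being called. Between KO and control 0 members of these 3 lists were called at 0 h or 4 h with limma, against 4.3% and 0.748% of all tested genes. At 0 h 1 DNA methylation gene and at 4 h 1 Polycomb gene had an unadjusted p under 0.05 on the deposited scale. After TMM scaling 2 H3K9 demethylase genes did at 0 h, and 1 H3K9 demethylase gene and 1 Polycomb gene did at 4 h. In the genotype difference of the change 0 were called and 0 had an unadjusted p under 0.05.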

How the data were processed

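The authors deposited a normalised signal per RefSeq transcript, that is, reads divided by a factor of each library. Tools named in the submitters' processing notes are HTSeq 0.6.0 and TopHat2 2.1.1, with DESeq2 and the build mm9. Settings, strand and the basis of the factors: not given in the sources used here. Whole reads were recovered for 100% of values (tolerance 0.001 reads). Of 33896 rows 978 repeated another row and were dropped, and 32918 transcripts were summed by symbol to 23974 genes. Genes with a mean of at least 10 (6952) were tested with limma 3.58.1 (R 4.3.3, trend and robust) on log2(value + 1) in 1 fit of 6 group means, with two-sided p-values adjusted by Benjamini-Hochberg across the tested genes. Genes with an adjusted p under 0.05 were called. The pseudocount shrinks the log2 changes of low genes. Intervals are 95%. TMM, edgeR 4.0.16 and DESeq2 1.42.0 were run on the recovered reads as alternatives, beside a pseudocount of 5, no filter, transcript rows, only the libraries compared, a replicate block and leaving out each library. The scripts were tested on simulated data. Transcript lengths, 50-base stretches and overlaps are from GENCODE M21 (GRCm38). The genes and lists were chosen with earlier results of these data known. Beyond the 10 genes, named genes are Zcchc8, at most 4 called members per list and comparison, and the 3 most similar courses. The other 47 samples were not analysed here.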

Additional observations from a re-analysis of the deposited data

How the results depend on the processing

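Of the 4 measured genes, 0 were called between KO and control at 0 h and 4 h, or in the genotype difference of the change, under all alternatives run. From 0 to 4 h in control the count was 1 under TMM scaling and 1 under the replicate block with TMM scaling (Trim28, higher), and 0 to 1 when single libraries were left out (Suv39h1, without control replicate 1 at 0 h). From 0 to 4 h in KO it was 2 with only the libraries compared. The number of genes at 8 h with KO above control without overlap was 3, and 2 to 4 over the alternatives. In the order TMM scaling, equal summed value without Rn45s, edgeR with TMM, DESeq2 and replicate block with TMM scaling, the following changes turned their direction: Trim28 in KO against control at 4 h (-0.19, -0.12, -0.19, -0.18, -0.19), Cbx1 from 0 to 4 h in control (0.27, 0.12, 0.29, 0.27, 0.27) and in KO (0.21, 0.10, 0.22, 0.20, 0.21), Cbx3 in control (0.18, 0.026, 0.18, 0.15, 0.18) and Trim28 in KO (0.41, 0.30, 0.41, 0.39, 0.41). Cbx3 in KO turned in 4 of them (0.022, 0.053, 0.033, 0.022), and at 8 h Cbx1 and Trim28 turned under TMM scaling (-0.25 and -0.35). With a pseudocount of 5 the genotype difference of Suv39h1 was -0.055. Leaving out single libraries turned Trim28 in KO against control at 4 h (-0.14 to 0.36), Cbx1 (-0.65 to 0.055) and Trim28 (-0.24 to 0.34) from 0 to 4 h in control, and the genotype difference of Cbx1 (-0.56 to 0.16), Cbx3 (-0.67 to 0.10) and Suv39h1 (-0.51 to 0.85). The cause of the turns was not tested.

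Samples with the same replicate number did not deviate together (correlations of -0.063 to 0.116), so the replicate block, which called 0 of the 4 genes in every tested comparison on the deposited scale, is only an alternative. Counts over all genes moved more. Genes called higher in KO numbered 294 at 0 h (53 to 1132 over the alternatives) and 52 at 4 h (12 to 278). Genes called lower from 0 to 4 h numbered 998 in KO (279 to 2521) and 817 in control (234 to 2067), and those called higher 2 in KO (0 to 289) and 34 in control (2 to 383). Depth limits Suv39h1 most, at 6 to 52 reads a library.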
